A study of Rattus norvegicus with 14 samples.

Results

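The genes followed here are 7 androgen-regulated or secretory genes of the prostate: Pbsn, Tgm4, Mme, Fkbp5, Hpgd, Msmb and Acp3. They were chosen by name, current symbol or older alias, among the 16134 named genes of an Affymetrix expression array, and each had 1 probe set. Acp3 is listed on the platform as Acpp. Each of the 14 arrays holds lateral prostate RNA from a male rat of the Noble strain, which the labels give as 48 weeks old. The 4 control rats carried empty capsules. In the other groups the capsules stayed in place for 32 weeks and held 30 mg testosterone together with a second compound. That compound was 15 mg estradiol in T+E2 (n = 4), 15 mg bisphenol A in T+lowBPA (n = 3) and 320 mg bisphenol A in T+highBPA (n = 3). All 3 treated groups thus received testosterone, and a testosterone-only group is not analysed here. The labels name a rat for each sample and do not state that no rat was used more than once, so p-values rest on the spread between samples, taken here as animals. RNA was amplified before hybridisation.

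Androgens sustain the secretory epithelium of the prostate, and the transcription of many of its secretory and regulatory genes depends on them. Steroid hormones act through nuclear receptors that bind DNA at hormone response elements. Pbsn, Tgm4, Msmb and Acp3 encode products released into the seminal fluid. Mme encodes a membrane peptidase, Fkbp5 a cochaperone of steroid receptors and Hpgd an enzyme that inactivates prostaglandins. In rats the lobes of the prostate secrete different proteins. Probasin and the prostate transglutaminase are known from the dorsal and lateral lobes, the latter also from the coagulating gland. Prostatic steroid-binding protein and its partners are known from the ventral lobe.

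The region before the start site of 6 of the 7 members was held in the RefSeq sequence table (GRCr8), and Acp3 was not among them. The 250 bases before the start were searched on both strands for TGTTCT (read as AGAACA on the opposite strand), the core sequence of hormone response elements bound by several steroid receptors. This motif was present in 17.1% of all 27457 such windows. It occurred 1 time each in the windows of Pbsn, Hpgd and Msmb, at bases -232 to -227, -236 to -231 and -103 to -98 from the start, and 0 times in those of Tgm4, Mme and Fkbp5. The palindromic hormone response element, in which this core follows its mirror image after 3 free bases, with 1 base of each core left free, was present in 0.0291% of windows and in 0 of the 6. A match is a description of the letters in the window and does not show binding. The windows of Pbsn, Tgm4 and Hpgd, the genes for which 8 of 10 testosterone arrays lay beyond all control arrays on 1 side, are printed 5′ to 3′ on the gene's strand, with the motif in capitals. They lie at chrX:45807984-45808233 on the minus strand (Pbsn), chr8:131566637-131566886 on the plus strand (Tgm4) and chr16:39034832-39035081 on the minus strand (Hpgd).
Pbsn: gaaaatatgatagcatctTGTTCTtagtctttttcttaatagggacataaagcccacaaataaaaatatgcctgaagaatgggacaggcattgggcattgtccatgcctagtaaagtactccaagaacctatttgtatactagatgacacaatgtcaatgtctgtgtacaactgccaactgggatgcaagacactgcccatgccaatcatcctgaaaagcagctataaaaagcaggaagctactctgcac
Tgm4: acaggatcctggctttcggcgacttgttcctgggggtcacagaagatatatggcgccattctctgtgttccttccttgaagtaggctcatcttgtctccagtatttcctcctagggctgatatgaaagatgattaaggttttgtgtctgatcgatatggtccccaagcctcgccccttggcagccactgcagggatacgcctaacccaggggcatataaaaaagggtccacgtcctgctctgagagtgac
Hpgd: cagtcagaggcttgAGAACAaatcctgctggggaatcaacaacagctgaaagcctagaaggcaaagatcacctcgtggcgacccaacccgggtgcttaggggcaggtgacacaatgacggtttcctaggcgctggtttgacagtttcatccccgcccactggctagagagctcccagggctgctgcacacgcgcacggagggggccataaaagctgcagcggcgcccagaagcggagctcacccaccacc

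Values are RMA log2 values, so a difference of 1 is a doubling, and levels are compared only within a gene. On these arrays values ran from 2.3 to 13.65. Control replicate 4 stood apart from its group, with a mean correlation across genes of 0.961 with the rest of its group, against 0.977 to 0.982 for the other 3 controls. Secretory genes of the ventral lobe (10 measured) averaged 10.01 in that array, while the 3 remaining controls averaged 5.09 to 5.47. The average was also high in T+E2 replicate 2 (9.89) and T+highBPA replicate 2 (10.09). The remaining pair of T+highBPA arrays had 8.69 and 8.10, and all others 5.59 to 6.72. The mean of 8 seminal vesicle markers was 6.53 to 7.09 over all arrays. In whole tissue, fewer cells of a type and less RNA per cell cannot be told apart.

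Tgm4, the prostate transglutaminase that cross-links seminal proteins into the copulatory plug, had the widest span of the 7 members. Its control values were 11.85, 12.18, 11.17 and 12.09. In T+E2 it was at 11.34, 8.63, 8.32 and 11.96, so that 2 rats lay within the control range and 2 far below it. In T+lowBPA it was at 7.20, 8.66 and 10.07, and in T+highBPA at 6.84, 7.75 and 10.26. Every BPA array lay below every control array, and 8 of the 10 testosterone-treated arrays did. The lowest and the highest of the 14 values differed by 5.34 on the log2 scale, or 40.6-fold, which ranked 20 among the spans of all genes (median span 0.64).

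The group means of Tgm4 were 11.82 ± 0.46 in control, 10.06 ± 1.85 in T+E2, 8.64 ± 1.43 in T+lowBPA and 8.28 ± 1.78 in T+highBPA (SD). The difference from control was -3.18 in T+lowBPA (95% interval -5.19 to -1.16), a level 9.04-fold lower. It was -3.54 in T+highBPA (-5.56 to -1.52), 11.6-fold lower, and -1.76 in T+E2 (-3.63 to 0.11). Ranked from the most negative, these were the differences of rank 2, 2 and 3 among 16134 genes. None passed the test over all genes (limma adjusted p = 0.383, 0.358 and 0.309), and the spread within the treated groups was several times that in control. The fit uses 1 spread for all groups. For each BPA group against control the two-sided exact permutation p was 0.0286, the smallest that 4 against 3 arrays can give, and for T+E2 it was 0.171. Neighbours among the treated groups did not pass the test either: T+lowBPA minus T+E2 was -1.42 (-3.43 to 0.60) and T+highBPA minus T+lowBPA -0.36 (-2.52 to 1.79).

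Over the 3 testosterone groups weighted equally, Tgm4 was 7.09-fold lower than in control, at a difference of -2.83 (-4.39 to -1.26). This was rank 1 by size of all genes in this comparison, with a limma adjusted p of 0.286 and an exact permutation p over the 14 arrays of 0.014. The differences without control replicate 4 were -3.09 in T+lowBPA, -3.45 in T+highBPA and -1.67 in T+E2 (adjusted p = 0.313, 0.138 and 0.391). Control replicate 4, in which the ventral lobe genes were high, had 12.09 and thus lay among the other controls for Tgm4. Skeletal muscle markers (14 measured) averaged 7.13, 6.73 and 9.63 in the arrays of T+lowBPA, in the order given above, and 6.29, 6.23 and 8.40 in those of T+highBPA, so the BPA arrays with the most Tgm4 were those with the most muscle RNA. In T+E2 it was 6.32, 7.76, 8.90 and 7.97, and replicate 3, the lowest for Tgm4, was the highest. The part of muscle RNA in these values was not tested. Of the 6 measured relatives of Tgm4 in the transglutaminase family, 0 were called in any of the comparisons, with 0 to 2 at an unadjusted p below 0.05 in each (6.41% to 27.4% of all genes). With control replicate 4 left out, 1 was called lower in T+E2 than in control and 1 higher in T+highBPA than in T+E2. Tgm2, the tissue transglutaminase, differed by -0.62 in T+E2 against control (adjusted p = 0.0536), Tgm5 by -0.22 in T+highBPA (0.496) and F13a1, the A chain of coagulation factor XIII, by 0.68 over the testosterone groups (0.706).

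**Figure D1:**
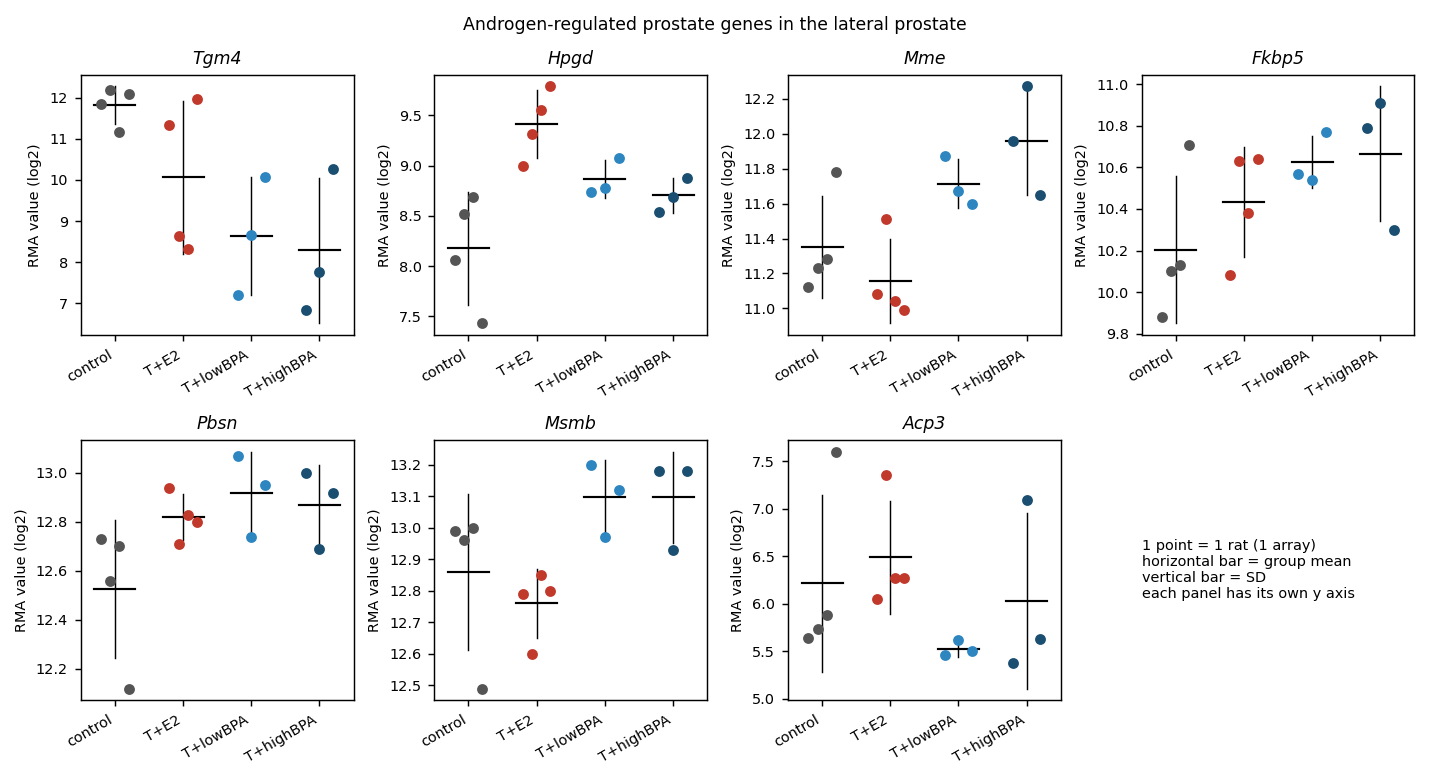
RMA log2 value of each of the 7 genes (1 panel each, with its own y axis) in the 4 groups; points are rats, horizontal bars group means and vertical bars SD. Tgm4 is at 11.17 to 12.18 in control and between 6.84 and 10.26 in the BPA groups, and Hpgd is highest in T+E2 at 9.0 to 9.79.

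Hpgd, the 15-hydroxyprostaglandin dehydrogenase, was the 1 member of 7 called against control in any group. It was at 8.06, 8.52, 8.69 and 7.43 in control and at 9.0, 9.32, 9.55 and 9.79 in T+E2. Every T+E2 array lay above every control array. Hpgd rose 2.37-fold in T+E2, by 1.24 ± 0.23 on the log2 scale (SE, 95% interval 0.75 to 1.74, limma adjusted p = 0.0087, exact permutation p = 0.0286, the smallest that 4 against 4 arrays can give). In this comparison 3.23% of all genes were called, and 1 call among 7 members is read against that share. The call held without each of the 14 arrays in turn (adjusted p = 0.0049 to 0.0371). It ended when the fit was limited to the T+E2 and control arrays (0.0609). Among the cell type markers, 4 of 11 smooth muscle genes and 2 of 8 basal epithelial genes were called lower in T+E2 than in control, and 0 of 9 luminal genes were called. These counts were 6, 2 and 1 (higher) without control replicate 4, and 0, 0 and 1 (higher) without the 3 arrays highest in ventral lobe genes. At an unadjusted limma p below 0.05 the smooth muscle, basal and luminal genes numbered 7, 4 and 5 with all arrays (17.9% of all genes). The luminal median was 0.29, against 0.01 over all genes, with 6 genes higher and 3 lower. The part of these cell types in the level of Hpgd was not tested.

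In T+lowBPA Hpgd was at 8.74, 8.78 and 9.08, above all control arrays, and in T+highBPA at 8.54, 8.69 and 8.88, overlapping them. The differences from control were 0.69 (0.15 to 1.23) and 0.53 (-0.01 to 1.06), with adjusted p of 0.557 and 0.583. Control replicate 4 held the lowest value, and without it these differences were 0.44 and 0.28 and that of T+E2 1.0 (adjusted p = 0.48, 0.548 and 0.00669). Between treated groups, T+highBPA lay below T+E2 on every array, by -0.72 (-1.25 to -0.18, adjusted p = 0.0834), and this difference was called without control replicate 4 (0.0185). T+lowBPA differed from T+E2 by -0.55 (-1.09 to -0.02, adjusted p = 0.335). Over the 3 testosterone groups, Hpgd differed from control by 0.82 (0.40 to 1.24, adjusted p = 0.201), with 8 of 10 arrays above all controls.

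Around Hpgd, 16 of 20 listed genes of prostaglandin synthesis, transport, inactivation and reception were measured, and 0 were called against control in T+E2, T+lowBPA or T+highBPA, with 2 each at an unadjusted p below 0.05 where 17.9%, 7.59% and 8.64% of all genes were (list medians -0.10, 0.01 and 0.01, against 0.01, 0.02 and -0.02 over all genes). Without control replicate 4, 1 was called lower in T+E2. In T+highBPA against T+E2, Hpgds, the hematopoietic prostaglandin D synthase, was lower by -0.77 (adjusted p = 0.0254). Ptgr2, a prostaglandin reductase, was higher by 0.35 (0.0345). The call of Hpgds ended without T+E2 replicate 1, 2 or 3 or any T+highBPA array (highest adjusted p 0.0972), and that of Ptgr2 without T+E2 replicate 1 or 4 or any T+highBPA array (0.12). Both ended under cyclic loess and quantile normalization and without the 3 arrays highest in ventral lobe genes. With the replicate number as a block, 3 genes of this list were higher and 1 lower in T+highBPA than in T+E2. In that fit 1940 genes of all were called, and Ptgr2 was not called (adjusted p = 0.0708).

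Mme, the membrane peptidase neprilysin, separated the BPA groups from T+E2. It was at 11.08, 11.51, 11.04 and 10.99 in T+E2, at 11.87, 11.67 and 11.60 in T+lowBPA and at 11.96, 12.27 and 11.65 in T+highBPA. Every BPA array lay above every T+E2 array. Mme was higher in T+highBPA than in T+E2 by 0.80 ± 0.18 (SE, 95% interval 0.42 to 1.18), a 1.75-fold difference that was called (limma adjusted p = 0.0119, exact permutation p = 0.0571). In this comparison 10.2% of all genes were called. The call ended without T+highBPA replicate 2 (adjusted p = 0.062) and held without each of the other 13 arrays. It also held without the 3 arrays highest in ventral lobe genes together (0.77, adjusted p = 0.00286).

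T+lowBPA lay above T+E2 for Mme by 0.56 (0.18 to 0.94, adjusted p = 0.125). This difference was called without control replicate 4 (adjusted p = 0.0435) and without the 3 arrays highest in ventral lobe genes (0.67, adjusted p = 0.00319). The control values of Mme were 11.12, 11.23, 11.28 and 11.78. The last, of control replicate 4, lay within the range of the BPA groups, and the other 3 lay below all BPA arrays. Against control the differences were -0.20 in T+E2 (-0.55 to 0.16), 0.36 in T+lowBPA (-0.02 to 0.74) and 0.61 in T+highBPA (0.23 to 0.99), none called (adjusted p = 0.575, 0.668 and 0.388). They were -0.05, 0.50 and 0.75 without control replicate 4 (0.882, 0.304 and 0.0714). Mme was also highest of its group in T+E2 replicate 2 and T+highBPA replicate 2, the arrays in which the ventral lobe genes were highest. T+lowBPA, with a ventral lobe mean of 6.16 to 6.33, was above the arrays of T+E2 with a mean of 5.59 to 6.72. In T+highBPA, the group of the called difference, the ventral lobe mean was 8.10 to 10.09. The part of ventral lobe tissue in the values of Mme was not tested.

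Of 10 measured membrane peptidases listed beside Mme, 1 was called in T+E2 against control, the aminopeptidase N gene Anpep (3.23% of all genes were called). Anpep was at 9.82, 9.73, 9.74 and 9.77 in control and at 10.23, 10.64, 10.57 and 10.58 in T+E2, and rose 1.67-fold (adjusted p = 0.00279). It was lower in T+highBPA than in T+E2 by -0.69 (adjusted p = 0.00492) and in T+lowBPA by -0.53 (0.0356). The latter call was lost on leaving out any of 9 arrays in turn (2 controls, 3 of T+E2, all of T+lowBPA and T+highBPA replicate 1), with a highest adjusted p of 0.159. It was also lost with the replicate block and without the 3 arrays highest in ventral lobe genes. Anpep and Mme thus differed in opposite directions between T+highBPA and T+E2.

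Fkbp5, the immunophilin that modulates steroid receptor complexes and is induced by several steroids, differed by less than 0.5 between any 2 groups and was not called. It was at 9.88, 10.10, 10.13 and 10.71 in control and at 10.08, 10.63, 10.38 and 10.64 in T+E2. In T+lowBPA it was at 10.57, 10.54 and 10.77, and in T+highBPA at 10.79, 10.91 and 10.30. The groups overlapped in each comparison with control. The differences from control were 0.23 (-0.16 to 0.62), 0.42 (0.00 to 0.84) and 0.46 (0.04 to 0.88) in that order, with adjusted p of 0.548, 0.657 and 0.53. Control replicate 4 held the highest control value. Without it, 9 of 10 testosterone arrays lay above the 3 remaining controls, and the differences were 0.40, 0.59 and 0.63 (adjusted p = 0.204, 0.263 and 0.114).

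Among 12 measured relatives in the FKBP family, 1 was called in T+E2 against control, where 3.23% of all genes were called. Fkbp11, known from the secretory pathway, was lower by -0.35 (adjusted p = 0.0386), a call that was lost on leaving out any of 11 arrays in turn, all but control replicate 3, T+E2 replicate 3 and T+highBPA replicate 3 (highest adjusted p 0.107). It was also lost under cyclic loess, quantile normalization, array weights and the replicate block, with only the compared groups, and without the 3 arrays highest in ventral lobe genes. In T+highBPA 3 of the 12 were called higher than in T+E2, with 0 lower, where 10.2% of all genes were called. These were Fkbp4 by 0.97, Fkbp11 by 0.42 and Fkbp14 by 0.46 (adjusted p = 0.00795, 0.0116 and 0.0351). The count was 6 without control replicate 4 and 3 without the 3 arrays highest in ventral lobe genes, where Fkbp11 was no longer among them. With the replicate number as a block it was 5, without Fkbp14 (adjusted p = 0.0634). Calls over all genes moved from 1639 to 2493, 1305 and 1940 in these 3 fits. The call of Fkbp11 in this comparison also ended under quantile normalization. That of Fkbp14 ended without T+E2 replicate 1, 2 or 4 or T+highBPA replicate 1 or 3 (highest 0.137). It also ended under cyclic loess and quantile normalization. Fkbp14 was also higher in T+lowBPA than in T+E2, by 0.53 (0.0352), a call that ended without any T+E2 array, T+highBPA replicate 1, or T+lowBPA replicate 1 or 2 (highest 0.19). This call also ended under cyclic loess, with the replicate block and without the 3 arrays highest in ventral lobe genes.

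Pbsn, the lipocalin probasin whose promoter is widely used to drive transgenes in prostate, was near the top of the measured range in every array. Control values were 12.73, 12.56, 12.70 and 12.12, and those of T+E2 12.94, 12.71, 12.83 and 12.80. T+lowBPA had 13.07, 12.74 and 12.95, and T+highBPA 13, 12.69 and 12.92. Every T+lowBPA array lay above every control array, and in all 8 of the 10 testosterone arrays did. The differences from control were 0.29 in T+E2 (0.01 to 0.57), 0.39 in T+lowBPA (0.09 to 0.69) and 0.34 in T+highBPA (0.04 to 0.64), none called (adjusted p = 0.256, 0.547 and 0.521). Over the 3 testosterone groups the difference was 0.34 (0.11 to 0.58), or 1.27-fold, with an adjusted p of 0.461 and an exact permutation p of 0.005. Control replicate 4 held the lowest value of all 14. Without it the 3 differences were 0.16, 0.26 and 0.21 (adjusted p = 0.468, 0.465 and 0.419).

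Of 13 measured lipocalins and neighbouring binding proteins, Obp2a, an odorant-binding lipocalin, was called in T+E2 against control, where 3.23% of all genes were. It was at 4.09 to 4.45 in control, at 6.53 to 6.93 in T+E2, at 3.85 to 4.81 in T+lowBPA and at 4.25 to 4.62 in T+highBPA. It rose in T+E2 against control, by 2.54 on the log2 scale (adjusted p = 1.04e-06). The arrays come with no detection call, and whether the low values of the other groups lay above background was not tested, so no fold is given. It was lower than in T+E2 by -2.44 in T+lowBPA and -2.41 in T+highBPA (3.12e-06 and 3.25e-06). Its call over the 3 testosterone groups (0.92, adjusted p = 0.0447) rests on T+E2, since both BPA groups overlapped control, and it was lost on leaving out any of 9 arrays in turn, 3 of them controls (highest adjusted p 0.171). Lcn1, a tear lipocalin, was lower in T+highBPA (3.92 to 4.03) than in T+E2 (4.16 to 4.72), by -0.55 (0.017). Whether these low values lay above background was not tested either. The call of Lcn1 ended without T+highBPA replicate 1 or 2 (highest 0.0647), without the 3 arrays highest in ventral lobe genes, and under cyclic loess and quantile normalization.

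Msmb, beta-microseminoprotein, was also near the top of the range. It was at 12.99, 12.96, 13 and 12.49 in control, with replicate 4 apart from the rest, and at 12.79, 12.60, 12.85 and 12.80 in T+E2. It was at 13.20, 12.97 and 13.12 in T+lowBPA and at 13.18, 12.93 and 13.18 in T+highBPA. All BPA arrays lay above all T+E2 arrays. The differences from T+E2 were 0.34 in T+lowBPA (0.06 to 0.61) and 0.33 in T+highBPA (0.06 to 0.61), and neither was called (limma adjusted p = 0.214 and 0.106, exact permutation p = 0.0286 each). Without control replicate 4 that of T+highBPA was called (adjusted p = 0.0301) and that of T+lowBPA was at 0.0566, and without the 3 arrays highest in ventral lobe genes that of T+highBPA was called too (0.0432). Against control the differences were -0.10 in T+E2, 0.24 in T+lowBPA and 0.24 in T+highBPA (adjusted p = 0.711, 0.684 and 0.624). Leaving out control replicate 4 gave -0.22, 0.12 and 0.11 (0.242, 0.745 and 0.658).

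Acp3, the prostatic acid phosphatase, was at 5.64, 5.74, 5.88 and 7.60 in control and at 6.05, 7.36, 6.27 and 6.27 in T+E2. It was at 5.46, 5.62 and 5.50 in T+lowBPA and at 5.38, 7.09 and 5.63 in T+highBPA. The 3 arrays above 7 were control replicate 4, T+E2 replicate 2 and T+highBPA replicate 2, the same arrays in which the mean of the ventral lobe genes was 9.89 to 10.09. T+highBPA replicates 1 and 3, with ventral lobe means of 8.69 and 8.10, had Acp3 at 5.38 and 5.63. None of its differences was called in the fit over all 14 arrays (adjusted p = 0.394 to 0.972). With those 3 arrays left out, T+E2 had 6.05 to 6.27, above every remaining array of the other groups. T+lowBPA then differed from T+E2 by -0.67 and T+highBPA by -0.69 (adjusted p = 0.00346 and 0.00544), and T+E2 from control by 0.44 (0.0518). The removal took out the highest Acp3 value of control, T+E2 and T+highBPA, and left T+highBPA with replicates 1 and 3. It thereby narrowed the spread within groups and was chosen with earlier results of these data known, so these p-values depend on that choice. The part of ventral lobe tissue in the Acp3 values was not tested. Of its 3 measured relatives 1 was called in T+highBPA against T+E2, where 10.2% of all genes were called, and 0 in every other comparison. This was Acp6, a lysophosphatidic acid phosphatase, higher in T+highBPA by 1.09 (adjusted p = 0.00232).

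**Figure D2:**
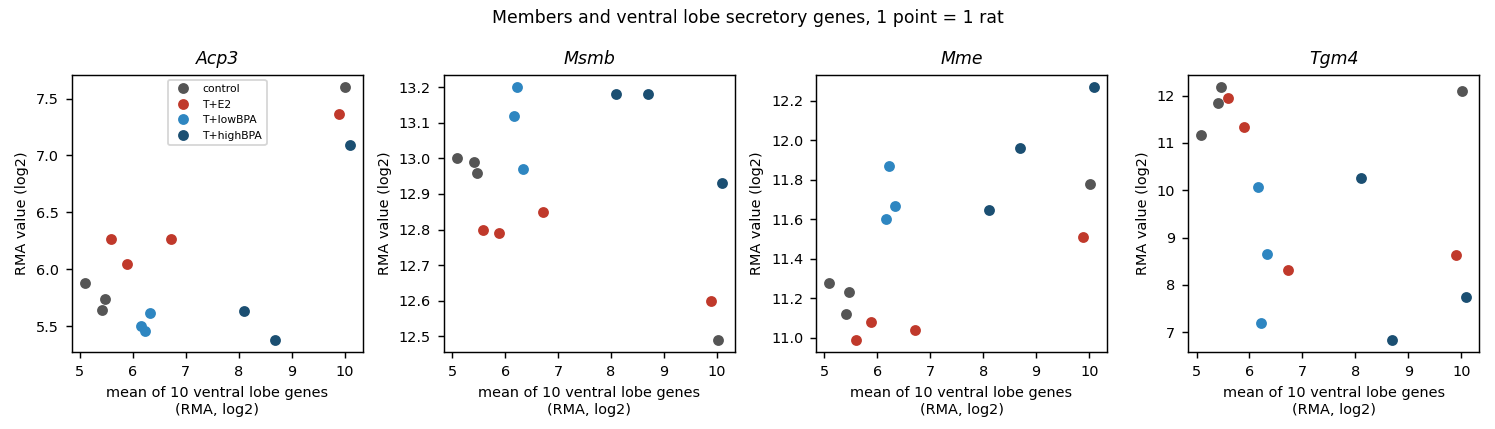
RMA log2 value of Acp3, Msmb, Mme and Tgm4 (y axes) against the mean of 10 ventral lobe secretory genes in the same array (x axis, log2); points are rats, coloured by group. The 3 arrays with a ventral mean of 9.89 to 10.09 hold the highest Acp3 values, at 7.09 to 7.60, while Tgm4 in those arrays is at 12.09, 8.63 and 7.75.

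Counted over the 7 members, 1 was called in T+E2 against control, 0 in T+lowBPA and 0 in T+highBPA, where 0.0186% and 0.0062% of all genes were called. Calls numbered 0 in T+lowBPA against T+E2 (3.53% of all genes), 1 in T+highBPA against T+E2, 0 in T+highBPA against T+lowBPA (0% of all genes) and 0 over the 3 testosterone groups (0.0372%). The 0 of T+highBPA against control became 3 with arrays weighted by their fit. At an unadjusted limma p below 0.05 the members numbered 2, 4 and 4 against control in T+E2, T+lowBPA and T+highBPA, where 17.9%, 7.59% and 8.64% of all genes were. They numbered 3 in T+lowBPA and 3 in T+highBPA against T+E2 (14.2% and 27.4% of all genes), 0 between the BPA groups (14%) and 4 over the testosterone groups (6.41%). Arrays of the groups did not overlap for 4 members in T+lowBPA against control, with 8.28% of all genes doing so, and for 1 each in T+E2 (9.35%) and T+highBPA (9.07%). Against T+E2, 3 members did not overlap in each BPA group (15.9% of all genes for T+lowBPA and 26.7% for T+highBPA), and between the BPA groups 0 did (25.4%). Over the 3 testosterone groups 0 lay beyond control on every array (0.217%). The comparisons with control share the same 4 control rats. The 2 BPA groups differed in no member by more than 0.51, the value of Acp3 (-0.58 to 1.59), and the interval was widest for Tgm4.

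**Figure D3:**
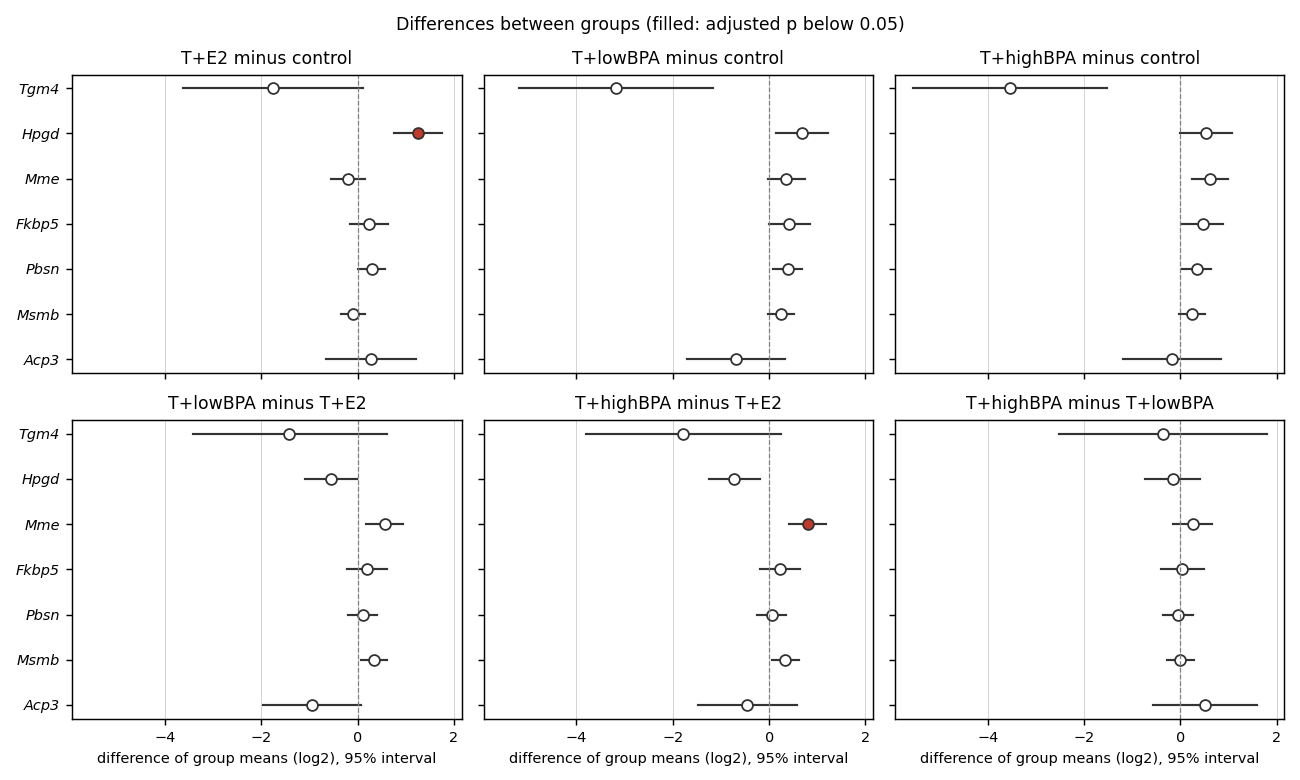
Difference of group means (x axes, log2) with its 95% interval for the 7 genes (y axes) in 6 comparisons, 1 panel each; filled points have an adjusted p below 0.05. The filled points are Hpgd in T+E2 minus control (1.24) and Mme in T+highBPA minus T+E2 (0.80), and the interval of Tgm4 in T+highBPA minus control runs from -5.56 to -1.52.

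Other androgen-responsive genes were read from a list of 30, of which 28 were measured. In T+E2 against control 2 were called higher and 0 lower, where 3.23% of all genes were called. The list median was 0.06 against 0.01 over all genes. Without control replicate 4 there were 2 higher and 1 lower. Sgk1, a kinase induced by steroid hormones, was at 8.79, 8.94, 8.86 and 8.59 in control and at 9.81, 10.06, 10.61 and 10.58 in T+E2. It rose 2.77-fold (adjusted p = 0.000125). Tmprss2, a membrane serine protease, was at 9.0, 9.45, 9.40 and 9.52 in control and at 9.84, 10.21, 10.91 and 10.56 in T+E2, with a rise of 2.05-fold (0.00983). The call of Tmprss2 ended when only these groups were fitted.

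In the BPA groups Sgk1 was at 8.46 to 9.03 and Tmprss2 at 8.66 to 9.40, both below all T+E2 arrays. Sgk1 was lower than in T+E2 by -1.30 in T+lowBPA and -1.64 in T+highBPA (adjusted p = 0.000506 and 7.77e-05). Tmprss2 was lower by -1.43 and -1.07 (0.00116 and 0.00669). Of the 28 genes 0 were called against control in T+lowBPA or T+highBPA, with medians of 0.03 and 0.04 (0.02 and -0.02 over all genes), and 0 over the 3 testosterone groups, with a median of 0.06 (0 over all genes). At an unadjusted p below 0.05 they numbered 1, 0 and 2 (7.59%, 8.64% and 6.41% of all genes). Without the 3 arrays highest in ventral lobe genes the calls were 1 higher and 1 lower in T+lowBPA, 1 higher in T+highBPA, and 1 in each direction over the testosterone groups. In T+highBPA against T+E2, 1 was called higher and 2 lower, where 10.2% of all genes were called. These counts became 3 and 5 without control replicate 4 and 3 and 3 under the replicate block. Calls over all genes rose as well, from 1639 to 2493 and 1940. The epithelial factor Spdef was higher in T+highBPA than in T+E2 by 0.68 (0.0407). Its call was lost on leaving out any of 7 arrays in turn, among them control replicate 2 and 3 arrays of T+E2 (highest adjusted p 0.152), on leaving out the 3 arrays highest in ventral lobe genes, and under cyclic loess and quantile normalization.

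Of a list of steroid-converting enzymes, steroid receptors, their chaperones and cofactors, and prostate transcription factors, 17 genes were measured. None was called against control, with 6, 3 and 4 of the 17 at an unadjusted p below 0.05 in T+E2, T+lowBPA and T+highBPA (17.9%, 7.59% and 8.64% of all genes), while the median difference was -0.18 in T+E2, 0.04 in T+lowBPA and -0.02 in T+highBPA (0.01, 0.02 and -0.02 over all genes). At an adjusted p below 0.05, 4 were higher in T+lowBPA than in T+E2 and 0 lower, where 3.53% of all genes were called. In T+highBPA 4 were higher than in T+E2 and 1 lower, where 10.2% of all genes were called. Without control replicate 4 both counts were the same, and without the 3 arrays highest in ventral lobe genes they were 2 and 0, and 4 and 1. Ncoa4, a nuclear receptor coactivator also known for ferritin turnover, was higher by 0.68 in T+lowBPA and 0.72 in T+highBPA (adjusted p = 0.00724 and 0.0034). Esr2, estrogen receptor beta, was higher by 0.98 and 1.14 (0.0308 and 0.00751).

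Hoxb13, a homeobox factor of the prostate, was at 7.60 to 8.42 in T+E2, at 9.15 to 9.53 in T+highBPA and at 8.11 to 9.50 in control. T+highBPA exceeded T+E2 for it by 1.24 (adjusted p = 0.0085). Fkbp4, the Hsp90 cochaperone that favours steroid receptor activity, differed by 0.97 in the same direction (0.00795), while the corepressor Ncor1 differed by -0.46 (0.0128). Control replicate 4 held the highest control value of Hoxb13, Esr2 and Fkbp4, and its ventral lobe mean was 10.01. This mean was 8.10 to 10.09 in T+highBPA, and 5.59 to 6.72 in T+E2 apart from replicate 2 (9.89). The part of ventral lobe tissue in the values of these genes was not tested. Their calls in T+highBPA against T+E2 held without the 3 arrays highest in ventral lobe genes. In T+lowBPA, Stip1, another Hsp90 cochaperone, was higher than in T+E2 by 0.44 (0.0265) and Srd5a1, a testosterone 5-alpha-reductase, by 0.49 (0.0414). The call of Esr2 in T+lowBPA ended without T+E2 replicate 1, 2 or 4 or any T+lowBPA array (highest 0.112). That of Ncor1 ended without T+highBPA replicate 2 or 3 (0.0633), and that of Stip1 without T+E2 replicate 1 or 2 or any T+lowBPA array (0.124). That of Srd5a1 was lost on leaving out any of 9 arrays in turn (0.214), and both of the last ended without the 3 arrays highest in ventral lobe genes. Of 9 measured genes known to rise in rat prostate after castration, 0 were called in any comparison, where 0% to 10.2% of all genes were. At most 1 in each was at an unadjusted p below 0.05 (6.41% to 27.4% of all genes). Without control replicate 4, 2 were called lower in T+highBPA than in T+E2, where 2493 genes of all were called. The nearest were Igfbp3, an IGF-binding protein, by -0.38 in T+highBPA against T+E2 (0.0577), and in T+E2 against control Clu, the chaperone clusterin, by 0.51 (0.314) and the growth factor Tgfb2 by 0.51 (0.343).

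**Figure D4:**
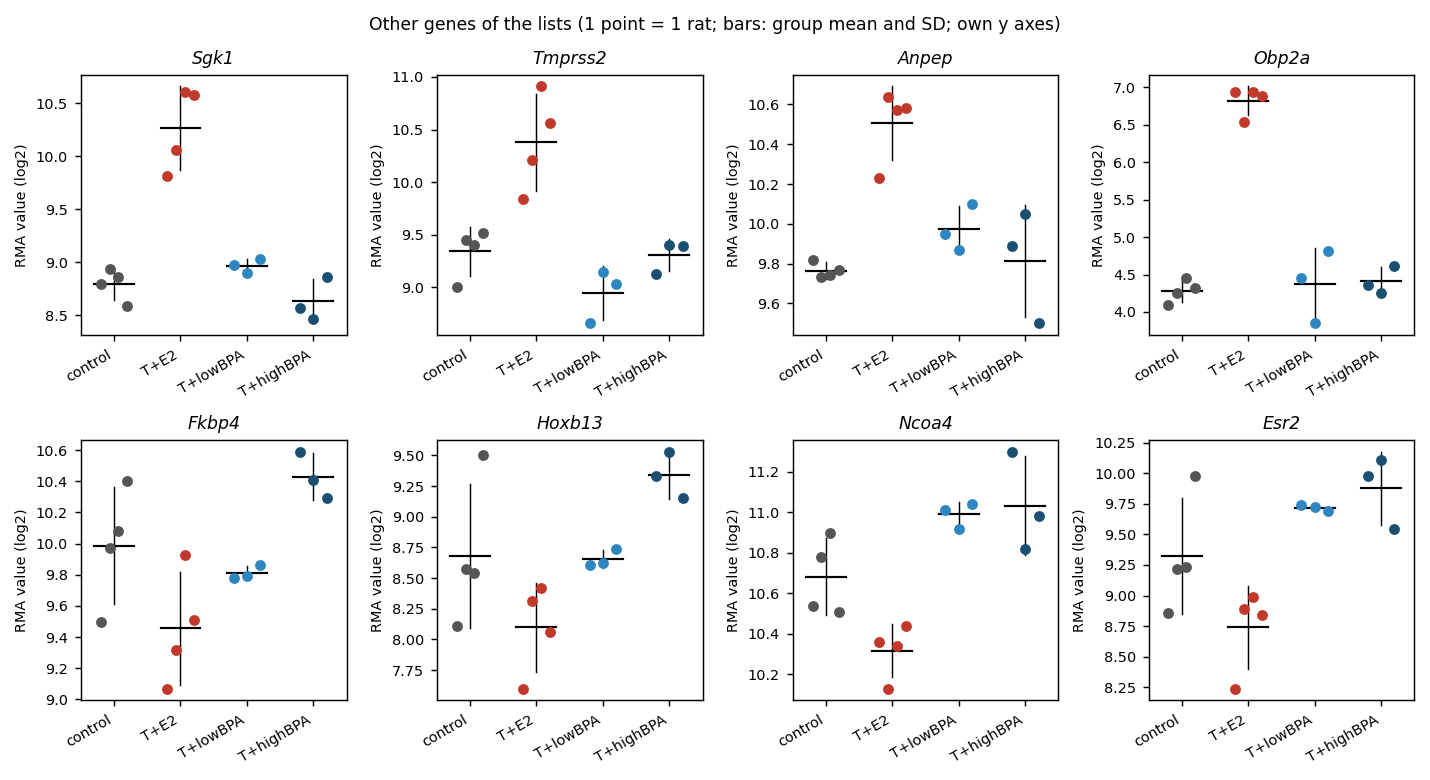
RMA log2 values of 8 genes of the lists (1 panel each, own y axis) in the 4 groups; points are rats, horizontal bars group means and vertical bars SD. Sgk1 is at 9.81 to 10.61 in T+E2 and at most 9.03 in the other groups, and Ncoa4 is at 10.13 to 10.44 in T+E2 and at 10.82 to 11.30 in the BPA groups.

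The genes whose pattern was most like that of each member were ranked by Pearson's r over the 14 arrays, as a description of arrays that share groups and tissue composition. After subtraction of group means the nearest to Tgm4 were Timm21 (r = 0.908) and Gpc5 (0.895), lower than for the other members. The nearest to Hpgd were Cxcl17 (0.933) and Slc14a1 (0.906), to Mme Erbb4 (0.964) and B3gnt5 (0.964), and to Fkbp5 Zbtb16 (0.955), a gene on the androgen-responsive list, and Abcf1 (0.954). Pbsn ran with Pabpc1 (0.990) and Ccdc88c (0.980), Msmb with Slc38a11 (0.976) and Sox7 (0.966), and Acp3 with Adm (0.993) and Cntn6 (0.987). Over the values as they are, the nearest were Fam115e and Fcgbpl1 for Tgm4 (0.936 and 0.917) and Dusp5 and Sh3bgrl2 for Hpgd (0.934 and 0.902). For Mme they were Acad11 and B3gnt5 (0.942 and 0.939), for Fkbp5 Btrc and Hspa4l (0.882 and 0.876) and for Pbsn Pabpc1 and Semg1 (0.968 and 0.95). For Msmb they were Slc38a11 and Car2 (0.984 and 0.972) and for Acp3 Rgs2 and Mid1 (0.976 and 0.976).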

How the data were processed

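RNA of the lateral prostate of 14 Noble rats had been hybridised to Affymetrix arrays, taken here as 1 array per rat. The authors deposited log2 values from RMA, per the submitters' processing notes. This method subtracts background, equalises the arrays and merges probes into 1 value per set, so overall brightness no longer differs. Version, probe grouping and genome build: not given in the sources used here. Arrays carry no read depth, and their number limits the precision.

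Of 17802 probe sets, 16134 had 1 gene symbol, and the other 1668 had none or more than 1. No symbol was held by several probe sets. Symbols were updated through the RefSeq gene table (GRCr8) for 3107 probe sets, and 16008 matched a gene number of it. Promoter windows came from RefSeq (GRCr8).

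Groups were compared with limma 3.58.1 in R 4.3.3 over all 14 arrays, with 1 coefficient per group, 10 residual degrees of freedom, two-sided tests and Benjamini-Hochberg adjustment over the 16134 genes within each of 7 comparisons. A gene is called when its adjusted p is below 0.05, and every adjusted p in the text is limma's. A difference is the first group's mean minus the second's, with its interval from the moderated error. Permutation tests of single members enumerate all splits of the arrays and are unadjusted over the 49 member tests. The pooled one weights arrays, not groups, equally. The fit was tested on simulated data. Groups share replicate numbers, whose meaning the labels do not state. Deviations of same-numbered arrays correlated above 0.1 in 14 of 19 pairs (range -0.464 to 0.444), and 6 of 14 arrays were nearest to one of their own number. All 3 pairs did so for T+E2 with T+highBPA (0.139 to 0.435) and for the BPA groups (0.102 to 0.255). Not all pairs did in the other comparisons. The main fit treated the arrays as unpaired in every comparison, and the replicate block was used only as an alternative.

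The members, 9 functional and 7 marker lists, and the removal of 3 arrays were chosen with earlier results of these data known. Named are all members, the called genes of each functional list (otherwise the 3 with the smallest p), and the 2 genes of highest correlation with each member. Alternatives were cyclic loess, quantile normalization, median centring, dropping dim genes, keeping unnamed probe sets, fitting only the compared groups, intensity trend with robust fitting, array weights, a replicate block, thresholds of 0.1 and 0.01, and omission of single arrays or of those 3.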

Additional observations from a re-analysis of the deposited data

Results flagged for a closer look

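A value far from the others of its group was found for 2 members among the 14 groups of 4 arrays screened with Dixon's test at its 95% critical value. Chance flags about 1 in 20 such groups. Msmb in control replicate 4 was at 12.49 against 12.96 for the nearest control, a gap of 0.927 of the group's range. Acp3 in control replicate 4 was at 7.60 against 5.88 for the nearest (0.879). Acp3 in T+E2 replicate 2 was at 7.36 against 6.27 (0.83). In both arrays the mean of the 10 ventral lobe genes was high, at 10.01 and 9.89.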

How the results depend on the processing

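The number of arrays limits these results, and a low count of calls is not a low count of differences. The single spread assumed for all groups matters most for Tgm4. Of 1176 recomputed member differences, 1129 kept their direction and side of the threshold, 15 passed it only in the alternative, 2 no longer passed it and 30 changed sign. Some alternatives could not change a direction, such as leaving out an array of a group outside the comparison. Only Hpgd in T+E2 against control and Mme in T+highBPA against T+E2 were called at first. For all other differences, keeping their side means staying uncalled, so the 1129 does not measure stability.

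The 1 member called in T+E2 against control (Hpgd) became 0 with only the compared groups in the fit, and was 1 with each array left out in turn. The 0 members called in T+highBPA against control became 3 with array weights, namely Tgm4 (-3.79, adjusted p = 0.0474), Mme (0.73, 0.0328) and Fkbp5 (0.62, 0.0474). The 0 called in T+lowBPA against T+E2 became 1 with array weights, 2 without the 3 arrays highest in ventral lobe genes, and 0 to 1 without single arrays (1 without control replicate 4). The 1 called in T+highBPA against T+E2 (Mme) became 2 at an adjusted p below 0.1, 0 below 0.01, 2 with only the compared groups, 3 with array weights, 3 without the 3 arrays and 0 to 3 without single arrays (0 without T+highBPA replicate 2, 3 without control replicate 4). The 0 called over the 3 testosterone groups became 1 with array weights, and the counts of T+lowBPA against control and of the BPA groups stayed at 0.

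Sign changes concerned differences that were not called. In T+highBPA against control Acp3 was at 0.07 with array weights and 0.01 with the replicate block, and at -0.71 to 0.28 without single arrays. In T+highBPA against T+E2 Pbsn was at -0.04 under cyclic loess, -0.02 with the replicate block and -0.01 to 0.14 without single arrays. Between the BPA groups Fkbp5 was at -0.01 under cyclic loess and -0.05 under quantile normalization, and Msmb at 0.02 with median centring. Without the 3 arrays Pbsn was at 0.04, Fkbp5 at -0.08, Msmb at 0.08 and Acp3 at -0.02. Without single arrays Pbsn ran from -0.14 to 0.04, Fkbp5 from -0.08 to 0.22, Msmb from -0.07 to 0.08, Acp3 from -0.02 to 0.83 and Tgm4 from -1.35 to 0.36. Over the testosterone groups Msmb was at -0.03 under quantile normalization, and Acp3 at 0.09 with array weights and -0.39 to 0.26 without single arrays. In T+E2 against control Acp3 ran from -0.02 to 0.73.

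With the replicate block, 6 of 31 calls of genes of the functional lists were lost. With the replicate block 1 member was called in T+E2 against control, 1 in T+highBPA against T+E2 and 0 in the other comparisons. It called 587 genes of all in T+E2 against control, where the fit without it called 521.

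Counts over all genes moved by over 1.5 times. In T+E2 against control 521 became 222 with only these groups, 1098 with array weights, 861 below 0.1, 192 below 0.01 and 282 to 662 without single arrays. In T+highBPA against T+E2 1639 became 2759 with array weights, 2826 below 0.1, 557 below 0.01 and 857 to 2493. In T+lowBPA against T+E2 569 became 904 with array weights, 267 below 0.01 and 309 to 882. The 3 genes of T+lowBPA and 1 of T+highBPA against control became 31 and 235 with array weights, 35 and 25 without the 3 arrays, and 0 to 14 and 0 to 12 without single arrays. The 6 over the testosterone groups became 157, 68 and 2 to 36, and the 0 between the BPA groups 18 with only these groups. The causes were not tested.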
